A study of Mus musculus with 56 samples.

Results

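The RNAPII-pS5 response to LPS in IL-4-pretreated bone marrow-derived macrophages (BMDMs) was followed in 4 of the 56 samples of the series, chosen by their labels: 2 IL-4 PT/ctrl and 2 IL-4 PT/LPS samples. Each sample was 1 list of ChIP-seq peaks, and together the 4 lists held 79547 peaks. BMDMs were grown from bone marrow of wild-type C57BL/6 mice aged 8 to 12 weeks, with L929 supernatant for 6 days. All 4 cultures received IL-4 at 20 ng/ml for 24 hr, so the unstimulated arm also carries the IL-4 treatment. The IL-4 PT/LPS samples then received LPS for 1 hr, at 100 ng/ml by the sample labels, where the study's methods give 100 nM. The ctrl/ctrl and ctrl/LPS samples, 2 of each, are the same BMDMs without IL-4, and entered the fit as further groups. The study describes the replicates as independent biological ones, and the sources used here do not say whether the 2 samples of a group came from separate mice. The p-values measure the spread between these samples.

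RNA polymerase II carries a repeated tail on its largest subunit, and serine 5 of this tail is phosphorylated by CDK7 as transcription starts. RNAPII-pS5 therefore marks polymerase near gene starts and at active enhancers, and it extends into gene bodies where transcription is intense, whereas serine 2 phosphorylation (RNAPII-pS2) increases as polymerase elongates. LPS of Gram-negative bacteria is sensed by TLR4, whose adaptors MyD88 and TRIF activate NF-kB and interferon regulatory factors, and these switch on chemokines, cytokines and interferon response genes. IL-4 acts through STAT6 and gives macrophages the alternative activation state, with genes such as Mgl2, Retnla and Arg1.

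The peak is the unit of measurement, and its score is a −log10 significance value given by the peak caller, not a read count. Sequencing depth is unknown, so no limit of detection could be given. The number of peaks was 21365 and 22149 in IL-4 PT/ctrl and 17826 and 18207 in IL-4 PT/LPS, and the median score stayed between 7.02 and 7.21. The score of a gene was taken as the summed score of all peaks that the files name after it, other than intergenic ones. Of 11799 genes with such a peak, 10610 had one in at least 2 of the 8 RNAPII-pS5 samples and were tested with limma, and a gene was called at an adjusted p of at most 0.05. A gene without a peak was set to the lowest score in the files, 1.44. No fold change is given for a gene without a peak in either sample of a group, because it would depend on that setting. Differences of 2 responses are given for some such genes among the results flagged for a closer look, with this limit stated there. All log2 changes are IL-4 PT/LPS minus IL-4 PT/ctrl.

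Promoters of genes on which the results turn are printed here to show the sites that the factors downstream of TLR4 and IL-4 could read. They are the 300 bases from 250 before to 50 after the start (RefSeq, GRCm38.p6), 5′ to 3′ on the strand of the gene. Capitals mark matches on either strand to GGGANNTTCC (NF-kB), GAAANNGAAA (core of the interferon-stimulated response element, ISRE), TGANTCA (AP-1) and TTCNNNNGAA (STAT6). Cxcl2 and Cxcl10 encode chemokines, Rsad2 encodes the antiviral protein viperin, and Nfkbia encodes the NF-kB inhibitor IkBa. Retnla and Mgl2 encode a secreted protein and a lectin that are hallmarks of alternative activation.
Cxcl2, chr5:90903649-90903948, plus strand: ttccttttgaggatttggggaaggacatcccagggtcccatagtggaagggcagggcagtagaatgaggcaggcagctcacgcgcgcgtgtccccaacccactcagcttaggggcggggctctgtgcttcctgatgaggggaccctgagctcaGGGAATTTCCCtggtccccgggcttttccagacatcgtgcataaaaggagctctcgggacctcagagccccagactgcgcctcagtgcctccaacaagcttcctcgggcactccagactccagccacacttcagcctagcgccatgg
Cxcl10, chr5:92348840-92349139, minus strand: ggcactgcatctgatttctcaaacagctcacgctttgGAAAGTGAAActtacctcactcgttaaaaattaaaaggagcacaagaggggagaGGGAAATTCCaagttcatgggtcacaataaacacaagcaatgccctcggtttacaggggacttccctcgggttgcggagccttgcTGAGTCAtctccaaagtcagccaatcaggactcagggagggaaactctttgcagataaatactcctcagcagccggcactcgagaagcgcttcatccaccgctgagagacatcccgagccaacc
Rsad2, chr12:26456403-26456702, minus strand: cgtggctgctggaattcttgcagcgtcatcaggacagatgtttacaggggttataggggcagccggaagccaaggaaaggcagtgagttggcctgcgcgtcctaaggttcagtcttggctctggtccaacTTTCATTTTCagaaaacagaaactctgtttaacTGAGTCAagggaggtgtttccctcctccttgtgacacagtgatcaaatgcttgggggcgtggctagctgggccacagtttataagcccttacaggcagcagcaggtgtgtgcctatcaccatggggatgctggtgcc
Nfkbia, chr12:55492598-55492897, minus strand: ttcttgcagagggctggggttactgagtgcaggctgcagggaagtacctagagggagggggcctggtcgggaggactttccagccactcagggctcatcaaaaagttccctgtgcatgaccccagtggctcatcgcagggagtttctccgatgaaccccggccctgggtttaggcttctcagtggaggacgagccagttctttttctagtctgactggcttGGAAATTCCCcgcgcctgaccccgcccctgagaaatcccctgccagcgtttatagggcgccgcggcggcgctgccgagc
Retnla, chr16:48842359-48842658, plus strand: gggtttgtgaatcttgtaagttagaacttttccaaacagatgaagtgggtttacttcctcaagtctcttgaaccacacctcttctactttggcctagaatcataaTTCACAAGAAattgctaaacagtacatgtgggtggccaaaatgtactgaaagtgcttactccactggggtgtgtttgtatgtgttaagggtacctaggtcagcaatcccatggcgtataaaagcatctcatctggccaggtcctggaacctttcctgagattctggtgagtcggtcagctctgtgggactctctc
Mgl2, chr11:70130107-70130406, plus strand: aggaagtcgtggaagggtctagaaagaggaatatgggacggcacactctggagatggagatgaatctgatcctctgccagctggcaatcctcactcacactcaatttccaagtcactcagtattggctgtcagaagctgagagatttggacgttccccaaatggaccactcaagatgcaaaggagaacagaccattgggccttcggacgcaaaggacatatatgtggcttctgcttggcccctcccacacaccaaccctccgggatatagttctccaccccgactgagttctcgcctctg

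In these windows Cxcl2 held 2 overlapping NF-kB matches, the first starting at position −97 from the start. Cxcl10 held an ISRE core at −213, an NF-kB match at −159 and an AP-1 match at −74. Rsad2 held an ISRE core at −120 and an AP-1 match at −87, Nfkbia an NF-kB match at −29, and Retnla a STAT6 match at −145. Mgl2 held none of the 4 motifs. Of 8358 tested genes with a RefSeq promoter of this length, 4.01% held the ISRE core, against 11.2% of the 582 with a higher RNAPII-pS5 score after LPS and 2.58% of the 1122 with a lower one. The NF-kB letters were found in 1.87%, 3.26% and 2.5% of the same promoters, and the AP-1 letters in 6.83%, 9.79% and 6.42%. The STAT6 letters were found in 6.66%, 7.56% and 6.24%. A match of these letters is a description of the sequence and not a measurement of binding.

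LPS redrew the RNAPII-pS5 landscape of IL-4-pretreated BMDMs in both directions. The scores rose at 757 genes, 7.13% of those tested, and fell at 1448 genes, 13.6%. Chemokine, interferon response and NF-kB feedback genes rose, whereas alternative activation genes, several Fc receptors and Csf1r fell. Of the 757 genes that rose, 391 (51.7%) had no peak in either IL-4 PT/ctrl sample, and of the 1448 that fell, 974 (67.3%) had none in either IL-4 PT/LPS sample. The median change over all genes tested was −0.20 on the log2 scale, or −0.09 over the 7746 genes with a peak in both groups. Replicates were closer to each other than to the other group, with a correlation across 3597 genes of 0.821 and 0.804 within groups and 0.483 to 0.496 between them. Leaving out 1 sample brought the genes that rose to 494 and 505 (without an IL-4 PT/ctrl sample) or 256 and 263 (without an IL-4 PT/LPS sample), and those that fell to between 708 and 777. With every list cut to the same number of peaks, 965 genes fell instead of 1448, and after quantile normalization 924 rose and 1075 fell.

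**Figure D1:**
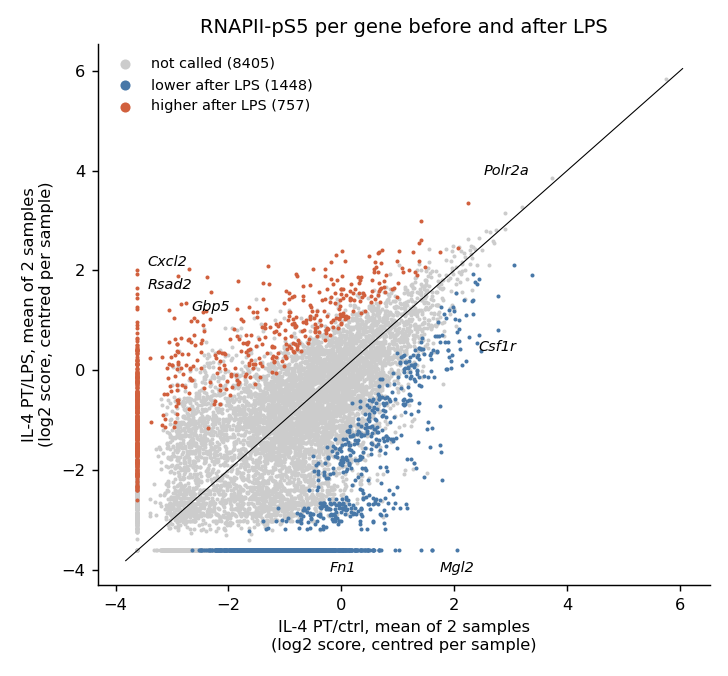
Each point is 1 of the 10610 genes tested, with the mean log2 RNAPII-pS5 score of the 2 IL-4 PT/ctrl samples on the horizontal axis and of the 2 IL-4 PT/LPS samples on the vertical axis, each sample centred on its median. Orange points (757) rose, blue points (1448) fell and grey points were not called, and the straight vertical and horizontal rows of points are genes without a peak in one of the groups.

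Counts of gene lists are read against the 7.13% of all genes that rose and the 13.6% that fell. By summed score, chemokine genes led the rise. Of 18 tested, 14 rose, 1 fell, and the median change was 2.60 (1.70 over the 10 with a peak in both groups), against −0.20 over all genes. Cxcl2, which draws neutrophils, had no peak in either IL-4 PT/ctrl sample and scored 72.5 and 69.5 in IL-4 PT/LPS (adjusted p = 0.00293). Its neighbours Cxcl1 and Cxcl3 behaved alike, from no peak to 21.7 and 23.03 and to 27.4 and 31.4 (both adjusted p = 0.00481). The NF-kB letters in the Cxcl2 promoter printed above thus belong to a gene on which peaks appeared in both stimulated samples.

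Several CC chemokines that recruit monocytes and T cells already carried RNAPII-pS5 before LPS. Ccl3 scored 21.2 and 15.2 in IL-4 PT/ctrl and 92.8 and 91.4 in IL-4 PT/LPS, a log2 change of 2.38 ± 0.23 (SE, adjusted p = 0.00481). Ccl4 went from 4.80 and 10.9 to 77.9 and 72.3 (3.39 ± 0.36, adjusted p = 0.00481). Ccl2 went from 36.1 and 23.9 to 89.9 and 96.8 (1.68 ± 0.22, adjusted p = 0.00540). In each of these genes both stimulated samples lay well above both unstimulated ones. Ccl7 rose by 1.70 ± 0.22 and Ccl12 by 2.54 ± 0.39. Ccl22, which attracts regulatory T cells and is also known as an IL-4-induced gene, had no peak in IL-4 PT/ctrl and scored 13.6 and 14.2 after LPS (adjusted p = 0.00481). Ccl6 was the chemokine that fell, from 42.1 and 47.4 to 13.6 and 22.7 (−1.33 ± 0.31, adjusted p = 0.0249).

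Interferons and interferon response genes rose at 18 of 31 tested and fell at 1, with a median change of 1.60. Ifnb1, the gene of interferon beta, had no peak in either IL-4 PT/ctrl sample and scored 21.6 and 22.6 in IL-4 PT/LPS (adjusted p = 0.00481). Rsad2 went from no peak to 69.6 and 63.4 (adjusted p = 0.00168). Cxcl10, an interferon-induced chemokine, went from 3.99 and no peak to 69.9 and 59.99 (4.77 ± 0.46, adjusted p = 0.00481). In each of these genes both stimulated samples scored far above both unstimulated ones, and the ISRE cores printed above stand in the promoters of the last pair.

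Antiviral effectors followed. Ifit1 went from no peak to 58.8 and 43.9 (adjusted p = 0.00999), and Ddx58, which encodes the viral RNA sensor RIG-I, from no peak to 22.5 and 27.4 (adjusted p = 0.00481). Gbp5, a guanylate-binding protein that acts on intracellular bacteria, went from no peak and 4.22 to 40.4 and 47.9 (4.18 ± 0.51, adjusted p = 0.00498). Irf7, the regulator that amplifies interferon transcription, already had peaks and went from 11.1 and 19.1 to 72.8 and 69.9 (2.31 ± 0.29, adjusted p = 0.00510). Irf1 was the member whose score fell, from 33.4 and 43.8 to 20.8 and 22.6 (−0.80 ± 0.20, adjusted p = 0.0329). Its bases under RNAPII-pS5 peaks, a measure described below, were 1420 and 1584 bp before LPS and 2125 and 2218 bp after it (adjusted p = 0.0668).

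**Figure D2:**
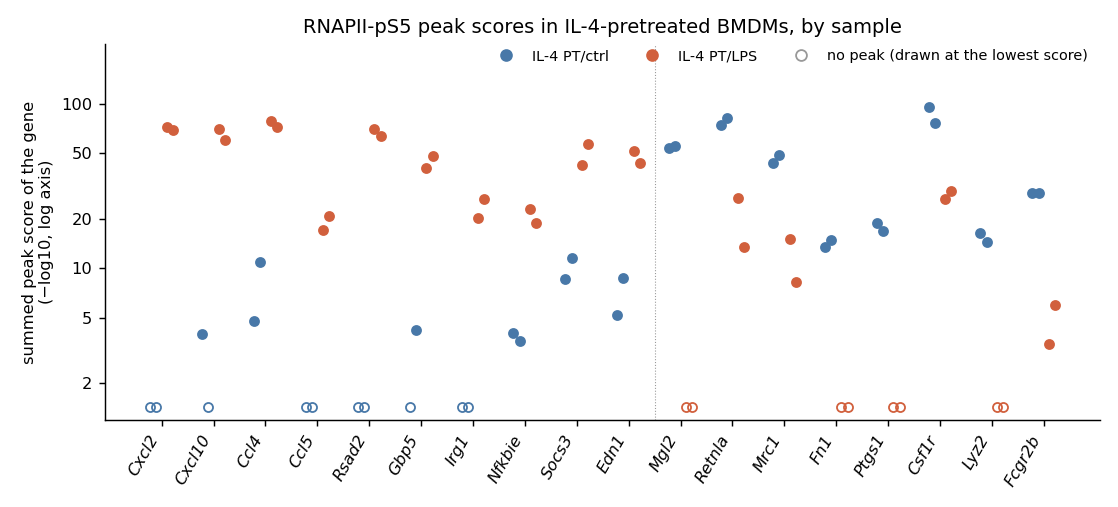
Summed RNAPII-pS5 peak score of 18 genes in each of the 4 samples, on a logarithmic axis, with open circles at the lowest score where a sample has no peak named after the gene. Genes left of the dotted line rose and those right of it fell, and in every gene drawn both samples of one group lie above both samples of the other.

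NF-kB subunit and feedback genes rose at 10 of 25 tested, and none fell, with a median change of 1.03. The subunit gene Rel went from 12.0 and 18.4 to 56.7 and 52.1 (1.89 ± 0.32, adjusted p = 0.00951), and Relb from 3.84 and 4.12 to 21.2 and 18.5 (2.33 ± 0.43, adjusted p = 0.0118). A pair of genes of the IkB family moved with them. Nfkbie went from 4.04 and 3.61 to 22.9 and 18.8 (2.46 ± 0.33, adjusted p = 0.00565), and Nfkbiz, an atypical IkB needed for secondary response genes, from 10.3 and 14.2 to 37.2 and 50.1 (1.85 ± 0.29, adjusted p = 0.00757). Rela, which encodes p65, was already high, at 50.6 and 63.3, and scored 70.9 and 68.2 after LPS (0.31 ± 0.18, adjusted p = 0.279).

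Among cytokines 7 of 21 rose and 2 fell, with a median of 0.56 that dropped to 0.25 over the 13 with a peak in both groups. Il15, which sustains NK cells, went from 31.4 and 22.9 to 77.2 and 80.4 (1.57 ± 0.23, adjusted p = 0.00618). Csf1, the growth factor of macrophages themselves, went from no peak to 14.3 and 17.9 (adjusted p = 0.00482), and Il1a from no peak to 9.70 and 11.4 (adjusted p = 0.0236). Il6 scored 5.2 and 7.8 before and 29.6 and 25.8 after LPS, a change that just missed the threshold (2.13 ± 0.62, adjusted p = 0.0544). Tnf scored 95.9 and 78.4 before LPS and 76.1 and 76.5 after it (−0.17 ± 0.14, adjusted p = 0.437), so its score in the unstimulated cells was as high as in the stimulated ones. Il10 lost its peaks, from 8.75 and 10.5 to none (adjusted p = 0.00645). With intergenic peaks counted the Il10 change was 0.21, and its RNAPII-pS2 score rose from 5.03 and 4.38 to 28.0 and 28.0 (2.29 ± 0.31, adjusted p = 0.00504), so the direction at Il10 depends on which peaks are taken.

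Immediate-early and AP-1 genes, which many stimuli switch on within minutes, changed about as often as all genes: 1 of 23 tested rose and 3 fell, with a median of 0.17. Jun fell from 49.5 and 44.6 to 20.7 and 26.6 (−0.99 ± 0.25, adjusted p = 0.0343). Batf fell from 95.5 and 91.3 to 23.6 and 27.9 (−1.85 ± 0.15, adjusted p = 0.00481), although its bases under peaks changed by 0.36. Fos scored 47.7 and 36.7 before and 40.2 and 55.6 after LPS (0.19 ± 0.28, adjusted p = 0.68). After 1 hr of LPS, then, Fos scores overlapped between the groups, while both Jun samples had come down.

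Feedback regulators were mixed. Socs3, the inhibitor of STAT3 signalling, rose from 8.57 and 11.6 to 42.4 and 57.1 (2.32 ± 0.35, adjusted p = 0.00696), and Pde4b, a cAMP phosphodiesterase, from 33.6 and 36.5 to 81.8 and 79.2 (1.22 ± 0.18, adjusted p = 0.00679). Map3k8, the kinase that links TLR4 to ERK, lost its peaks of 9.11 and 14.5 (adjusted p = 0.0124). In all 2 of 19 tested members of this list rose and 2 fell, near the shares over all genes, whereas 6 had more bases under peaks, a measure described below, and 2 had fewer. Of 12 mRNA decay factors and MAP kinase phosphatases 2 rose and 1 fell: Dusp6 went from no peak to 12.3 and 13.0 (adjusted p = 0.0126), and Zfp36l1 fell from 137 and 109 to 48.9 and 49.3 (−1.30 ± 0.19, adjusted p = 0.00682).

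Of 13 tested genes of the LPS receptor and its adaptors 3 rose and 2 fell. Cd14, the co-receptor that hands LPS to TLR4, rose from 7.29 and 6.99 to 22.01 and 22.25 (1.65 ± 0.27, adjusted p = 0.00840), and Myd88 from 8.87 and 11.5 to 23.6 and 27.3 (1.35 ± 0.23, adjusted p = 0.00965). Tlr4 itself fell, from 25.8 and 27.3 to 9.14 and 12.2 (−1.31 ± 0.36, adjusted p = 0.0436). Of 12 inflammasome genes 2 rose and none fell, and by bases under peaks 4 rose and none fell. Casp4, the mouse caspase-11 that binds intracellular LPS, went from 10.9 and 9.60 to 25.1 and 23.7 (1.27 ± 0.24, adjusted p = 0.0139), and Nlrp3, the sensor of the inflammasome, from 19.2 and 9.49 to 30.7 and 38.5, short of the threshold by score (1.36 ± 0.40, adjusted p = 0.0563). Its bases under peaks passed it, at 1687 and 1275 bp before and 2920 and 3277 bp after LPS (0.98, adjusted p = 0.00685).

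Inducible enzymes and transporters rose at 5 of 15 tested and fell at none, with a median of 0.90. Irg1, whose enzyme makes itaconate, went from no peak to 20.2 and 26.4 (adjusted p = 0.00481), and Ptgs2, the inducible cyclooxygenase, from no peak to 11.7 and 16.2 (adjusted p = 0.00513). The sugar transporter gene Slc2a6 went from 17.4 and 15.7 to 83.3 and 90.7 (2.41 ± 0.25, adjusted p = 0.00481). Slc7a2, an arginine transporter, went from no peak and 6.25 to 35.4 and 34.4 (3.56 ± 0.69, adjusted p = 0.0140). The constitutive cyclooxygenase Ptgs1, which is not counted in this list, went the other way, from 18.9 and 16.8 to no peak (adjusted p = 0.00483). Genes of RNA polymerase II and its elongation factors rose at 4 of 20, among them Cdk12 and Ccnt2, a kinase of serine 2 and a cyclin of P-TEFb (1.43 ± 0.25 and 1.4 ± 0.36), and none fell. By bases under peaks 1 of 19 rose and 1 fell, with changes of 0.01 at Cdk12, −0.02 at Ccnt2 and −0.45 at Hexim1, which had risen by score, and in RNAPII-pS2 1 of 20 rose and 2 fell. Polr2a, the gene of the phosphorylated subunit, already scored high and did not pass the test, at 233 and 240 against 252 and 253 (0.11 ± 0.04, adjusted p = 0.139).

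Genes known to mark or drive alternative activation fell more often than all genes. Of 24 tested 11 fell and 1 rose, with a median change of −1.56 (−0.82 over the 19 with a peak in both groups). Mgl2, a galactose-binding lectin, scored 53.5 and 54.9 in IL-4 PT/ctrl and had no peak in either IL-4 PT/LPS sample (adjusted p = 0.00482). Retnla fell from 73.7 and 82.2 to 26.6 and 13.5 (−2.02 ± 0.44, adjusted p = 0.0197), and Mrc1, the mannose receptor, from 43.4 and 49.0 to 15 and 8.2 (−2.04 ± 0.33, adjusted p = 0.00840). The groups were apart in each of these genes, and the STAT6 letters in the Retnla promoter printed above stand at a gene whose peaks shrank but did not vanish. Fn1, fibronectin, went from 13.4 and 14.9 to no peak (adjusted p = 0.00481). Chi3l3, known as Ym1, went from 10.9 and 24.6 to no peak and 3.66 (−2.82 ± 0.60, adjusted p = 0.0191), and its near-identical relative Chi3l4 makes the division of reads between them uncertain. Cdh1, E-cadherin, fell from 24.7 and 40.4 to 6.88 and 6.71 (−2.20 ± 0.43, adjusted p = 0.0145).

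Arg1, arginase 1, scored 40.4 and 46.5 before and 9.64 and 8.20 after LPS. The groups did not overlap, but the change did not pass the test on scores (−2.27 ± 0.87, adjusted p = 0.119). The IL-4 receptor gene Il4ra (−0.03 ± 0.37), Stat6 (0.57 ± 0.41) and Pdcd1lg2 (0.10 ± 0.23), which encodes PD-L2, did not pass the test either. Edn1, the vasoconstrictor endothelin 1, was the member that rose, from 5.23 and 8.74 to 51.7 and 43.3 (2.82 ± 0.49, adjusted p = 0.01).

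Receptors that phagocytes use to sense pathogens and antibody fell at 5 and rose at 2 of 16 tested by score, while 3 had more and 3 had fewer bases under peaks. The Fc receptor genes Fcgr2b, Fcgr3 and Fcgr1 all fell: Fcgr2b from 28.7 and 28.5 to 3.45 and 5.97 (−2.64 ± 0.39, adjusted p = 0.00655), Fcgr3 from 40.7 and 19.9 to 5.01 and 6.72 (−2.28 ± 0.41, adjusted p = 0.0113) and Fcgr1 from 18.1 and 17.9 to 5.05 and 9.08 (−1.39 ± 0.30, adjusted p = 0.0206). In contrast Clec4d, a lectin that recognises mycobacterial glycolipid, rose from 8.81 and 5.41 to 37.7 and 29.7 (2.29 ± 0.30, adjusted p = 0.00556).

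The labelled cell type was checked on 14 macrophage markers. In IL-4 PT/ctrl 13 and 12 of them had a peak, with summed scores of 345 and 354, and in IL-4 PT/LPS 10 and 12, with sums of 292 and 298. No peak was named after Spi1 in any of the 4 samples. Of 13 tested, 3 rose and 5 fell. By bases under peaks 1 of 13 rose and 5 fell, and in RNAPII-pS2 also 1 of 13 rose and 5 fell. Csf1r, the receptor that keeps macrophages alive, fell from 94.8 and 76.6 to 26.4 and 29.4 (−1.60 ± 0.28, adjusted p = 0.0105), and Lyz2, lysozyme, from 16.4 and 14.5 to no peak (adjusted p = 0.00578), whereas Emr1, which encodes F4/80, rose from 19.7 and 35.6 to 73.5 and 68.9 (1.44 ± 0.39, adjusted p = 0.0419). In a bulk culture a change in the number of cells carrying a peak and a change of signal per cell cannot be told apart. Of 10 neutrophil markers 1 and 2 had a peak before LPS and 4 and 5 after, with sums of 15.9 and 29.3 against 43.8 and 40.7. Among them Ngp and S100a8 rose, while Elane, Mpo, Camp and Ly6g had no peak in any of the 4 samples. The 10 lymphocyte markers had sums of 56.2 and 76.2 before and 55.0 and 48.7 after LPS, and Cd79a, Cd3e, Cd4, Cd8a and Pax5 had no peak. The part of these cell types in the results was not tested.

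**Figure D3:**
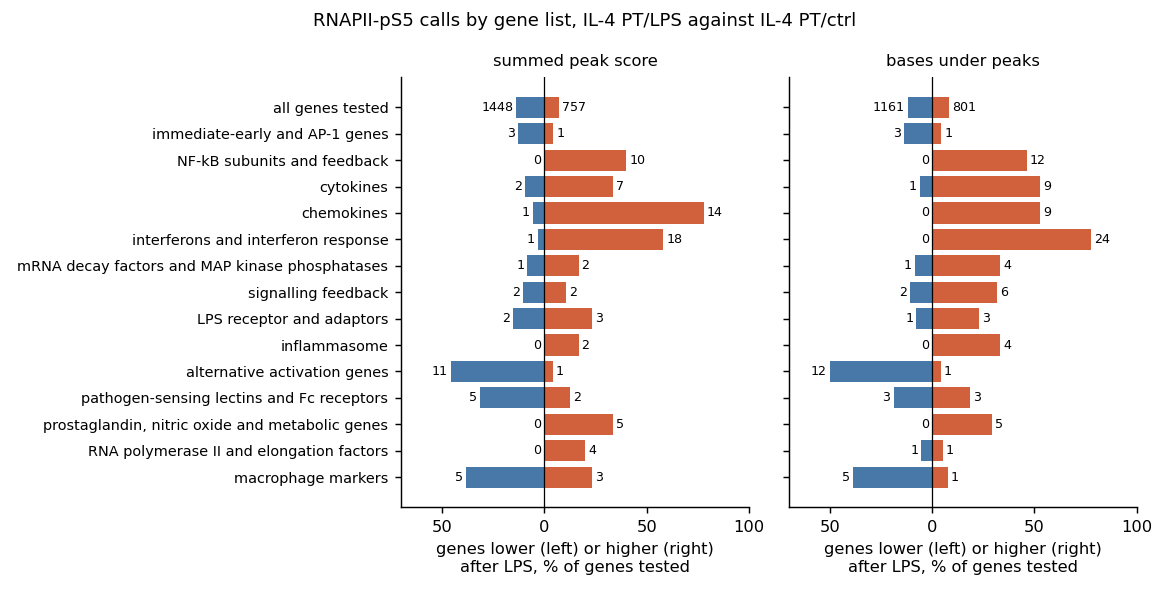
For 14 gene lists and all genes tested, bars to the right give the percent of tested genes that rose after LPS in IL-4-pretreated BMDMs and bars to the left the percent that fell, by summed peak score (left panel) and by bases under peaks (right panel), with the number of genes at the end of each bar. Chemokines, interferon response genes and NF-kB genes extend to the right and alternative activation genes to the left in both panels.

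A second measure was added after the scores had been seen: the number of bases of each RefSeq gene span that lie under RNAPII-pS5 peaks. It was needed because each peak carries a single gene name, so that a wide peak can take the name of a neighbouring or overlapping gene. Peaks became wider with LPS. Peaks of over 2000 bp made up 1.05% and 1.00% of the lists in IL-4 PT/ctrl and 2.00% and 1.83% in IL-4 PT/LPS, and there were 2 and 1 of over 4000 bp before LPS against 11 and 12 after it. In ctrl BMDMs the share over 2000 bp went from 0.534% and 0.539% to 1.91% and 1.9%, so wider peaks were seen with LPS in both kinds of BMDM. The widest before LPS lay over the ferritin gene Fth1, at 4576 and 4588 bp, and over Retnla, at 4007 and 3948 bp. After LPS they lay over Il1b, at 7015 and 6747 bp, followed by Nfkbia, at 5385 and 5409 bp, Mir21, at 5087 and 5258 bp, and Ccl5, at 5065 and 5053 bp.

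Il1b, at chr2:129364569-129371164 (mm10), shows why the name matters. It encodes interleukin 1 beta. In IL-4 PT/ctrl the peaks named Il1b scored 10.9 and 10.3, and in IL-4 PT/LPS no peak other than intergenic ones carried the name, so that by name its score fell (adjusted p = 0.0148). The wide peak of the stimulated samples was named after the overlapping gene Gm14047. It spanned positions 129363171 to 129370185 in the first sample and 129363209 to 129369955 in the second. The bases of Il1b under RNAPII-pS5 peaks were 82 and 0 before LPS and 5617 and 5387 of 6596 bp after it, a log2 change of 4.59 ± 0.19 (adjusted p = 0.000870). RNAPII-pS2 peaks covered 0 and 0 bp of it before and 5200 and 5363 bp after LPS. A p65 peak at its promoter scored 13.0 and 10.9 in IL-4 PT/ctrl and 82.4 and 105.2 in IL-4 PT/LPS. A peak upstream of the gene, at about 129373236 to 129373780, scored 5.92 and 10.3 in RNAPII-pS5 and 51.7 and 59.9 in RNAPII-pS2 in IL-4 PT/ctrl, and neither antibody had a peak there in IL-4 PT/LPS, so that RNAPII-pS2 by name fell too (adjusted p = 0.00138). p65 at this upstream site rose, from 4.69 and 5.54 to 47.4 and 48.3. After LPS, peaks of both polymerase forms lay over the gene span and none at this upstream site. Further upstream, at about 129379848 to 129381417, intergenic peaks named Il1b scored higher after LPS. The highest RNAPII-pS5 peak there scored 3.75 and 6.72 in IL-4 PT/ctrl and 13.7 and 10.03 in IL-4 PT/LPS. In RNAPII-pS2 the peak scored 3.37 and 4.25 before and 14.5 and 9.45 after LPS.

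Of 9810 genes tested on this measure, 801 (8.17%) had more bases under peaks after LPS and 1161 (11.8%) fewer. Among 664 genes with a higher score and a tested span, 397 also had more bases under peaks and 10 had fewer, and among 1171 genes with a lower score 707 had fewer and 10 had more. Leaving out 1 IL-4 PT/LPS sample brought the genes with more bases to 436 and 426, and leaving out the second IL-4 PT/ctrl sample brought those with fewer to 734. By list, 24 of 31 interferon genes, 9 of 17 chemokines, 9 of 17 cytokines and 12 of 26 NF-kB genes had more bases under peaks. Among alternative activation genes 12 of 24 had fewer.

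At some genes RNAPII-pS5 filled nearly the whole span. In 15 genes peaks covered at least 90% of the span in both IL-4 PT/LPS samples and less than 50% in both IL-4 PT/ctrl samples, and 9 genes showed the reverse. Ccl5 had no base under a peak before LPS and 4694 and 4678 of its 4741 bp after it (adjusted p = 0.000291). Cxcl2 and Ifnb1 went from 0 to 100% in both samples, and Isg15, a ubiquitin-like antiviral protein, from 21.1% and 17.1% to 100%. Cxcl1, Cxcl10, Ccl8, Ccl12 and Ifitm3 were also in this group. These are short genes, and Ccl5 had the longest span among the 15. The median peak width in IL-4 PT/LPS was 515 and 516 bp, below the span of each filled gene named above. Those spans were therefore filled by wider peaks or by several peaks. The 9 emptied spans were short as well, among them Ear2, histone genes and small RNA genes.

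In longer genes part of the body was newly covered. Nfkbia had 319 and 275 bp of its 3239 bp under peaks before LPS and 2354 and 2322 bp after it (2.35, adjusted p = 0.000870), although its score did not pass the test (80.5 and 74.6 against 104.92 and 79.66, adjusted p = 0.323). Il6 went from 395 and 410 bp to 2190 and 2389 bp (2.05, adjusted p = 0.00601). Socs3 went from 335 and 361 bp to 3053 and 3027 bp (2.56, adjusted p = 0.000870). Gbp5 went from 0 and 97 bp to 6216 and 6977 bp, the largest change of covered bases among the genes named here (4.80, adjusted p = 0.000870). Tnf was covered over 44.0% and 53.0% of its span before LPS and over all of it in both samples after, which did not pass the threshold (0.95, adjusted p = 0.0798).

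Other genes were vacated. Fos had 2164 and 1796 bp under peaks in IL-4 PT/ctrl and 404 and 572 bp in IL-4 PT/LPS (−1.67, adjusted p = 0.00582), while its score did not differ beyond the spread, so the score of this gene came from fewer covered bases after LPS. Rgs2, a regulator of G protein signalling, went from 4055 and 4073 bp to 822 and 755 bp (−2.11, adjusted p = 0.000870). Arg1, which missed the threshold by score, lost all of its 1820 and 1798 covered bases (adjusted p = 0.000870). Mrc1 went from 6493 and 4842 bp to 314 and 0 bp (−4.18, adjusted p = 0.00643). Retnla, whose score fell, stayed covered, with all 1853 bp covered before LPS and 1490 and 1853 bp after it (adjusted p = 0.641).

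**Figure D4:**
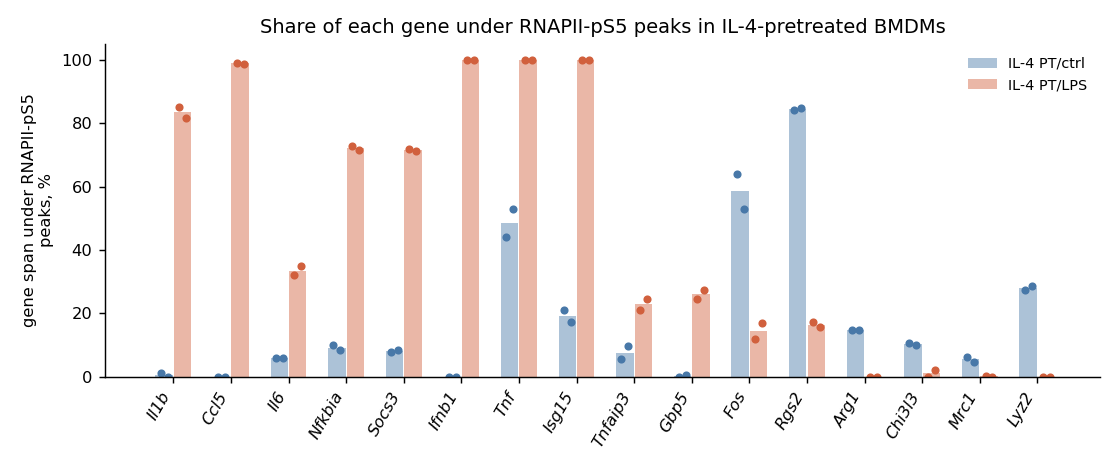
Percent of the gene span under RNAPII-pS5 peaks for 16 genes in IL-4 PT/ctrl (blue) and IL-4 PT/LPS (orange). Bars are means of 2 samples and points are the samples. Il1b, Ccl5, Ifnb1 and Isg15 go from at most 21.1% to at least 81.7%, and Fos, Rgs2, Arg1 and Lyz2 go down.

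Split by position, the part of each gene score that came from peaks annotated to the promoter rose at 249 of 5196 genes (4.79%) and fell at 646 (12.4%). The remaining, gene-body part rose at 762 of 8170 genes (9.33%) and fell at 1121 (13.7%). Without the first or the second IL-4 PT/LPS sample the rises numbered 66 and 69 for promoters and 283 and 315 for bodies. In 2870 genes tested on both parts, 17 rose in both, 26 fell in both, 95 had a lower promoter part and a higher body part, and 44 the opposite. Isg15, Nfkbiz, Nlrp3, Gbp7, Igtp and Usp18 were among the 95. Nfkbiz had promoter peaks summing to 10.3 and 14.2 and no body peak in IL-4 PT/ctrl. In IL-4 PT/LPS it had body peaks summing to 37.2 and 50.1 and no peak annotated to the promoter. Yet its peak at chr16:55837755-55839070, 228 bp from an annotated start, grew from 5.68 and 4.71 to 15.4 and 20.7 (1.79 ± 0.37, adjusted p = 0.0146). There the annotation changed from promoter to intron. A peak at chr16:55821927-55822283, of 4.62 and 9.45 before LPS, was absent after it. This exchange is partly one of names: of the 71 such genes with a RefSeq start, 45 still had a peak over that start in both IL-4 PT/LPS samples. Over all 510 genes with a lower promoter part and a RefSeq start, a peak still lay over the start in both IL-4 PT/LPS samples in 127 (24.9%).

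RNAPII-pS2, measured in separate libraries of the same treatments, moved with RNAPII-pS5. It rose at 1195 of 11640 genes (10.3%) and fell at 1236 (10.6%), with 448 and 449 rises left without the first or the second IL-4 PT/LPS sample and 549 to 606 falls without any 1 of the 4. Of 725 genes that rose in RNAPII-pS5 and were tested in RNAPII-pS2, 350 (48.3%) rose and 5 fell, and of 1368 that fell in RNAPII-pS5, 557 (40.7%) fell and 15 rose. Of 8131 genes not called in RNAPII-pS5, 7.92% rose and 6.99% fell. Ccl3 scored 14.98 and 18.83 before and 77.4 and 82.9 after LPS in RNAPII-pS2 (1.96 ± 0.16, adjusted p = 0.00173), and Cxcl2 went from no peak to 58.9 and 59.0 (adjusted p = 0.00138). Mgl2 went down in RNAPII-pS2 as well, from 20.9 and 43.8 to 6.28 and no peak (−3.65 ± 0.77, adjusted p = 0.0166), and so did Csf1r (−1.12 ± 0.17, adjusted p = 0.00619). Mrc1 had RNAPII-pS2 scores of 29.1 and 49.1 after LPS against 40.4 and 58.5 before (−0.65 ± 0.28, adjusted p = 0.151), although its bases under RNAPII-pS2 peaks fell from 5180 and 5477 to 986 and 1565 bp (−1.93, adjusted p = 0.00431).

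Peaks of the 8 samples were also merged into 38254 regions, which keeps the intergenic ones. Of 27609 regions tested, 3142 (11.4%) rose after LPS and 4866 (17.6%) fell. Without an IL-4 PT/LPS sample 1568 and 1524 rose, and without an IL-4 PT/ctrl sample 2767 and 2766 fell. The IL-4 PT/ctrl lists were longer, and with equal numbers of peaks 2825 regions rose and 2816 fell (3450 and 3364 after quantile normalization). By annotation, 7.18% of promoter regions rose and 14.4% fell, against 12.7% and 16.5% of intronic and 12.5% and 19.4% of intergenic regions. Regions at transcription termination sites fell most often, at 26%, and 10.9% of them rose. Counted by presence alone, 2706 regions had a peak in both IL-4 PT/LPS samples and in neither IL-4 PT/ctrl sample, 4626 showed the reverse, and 8847 had a peak in all 4. With equal numbers of peaks 2778 were gained and 2776 lost.

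p65, the transactivating NF-kB subunit, was measured under the same treatments and gives an independent view of these regions. A p65 peak in both IL-4 PT/LPS samples overlapped 67.8% of the 3142 regions that rose, 53.2% of those not called and 37.3% of the 4866 that fell. Among 18374 distal regions, that is intronic or intergenic ones over 1000 bp from a start, the shares were 73.4%, 64.2% and 45%. Counted by presence, p65 lay at 65.4% of the gained regions, 33.2% of the lost ones and 64.0% of those present in all 4 samples, and among intronic and intergenic regions it lay less often at gained ones (67.2% and 72.9%) than at those present throughout (73.2% and 80.1%). A p65 peak in both IL-4 PT/ctrl samples was seen at 18.3% of the regions that rose and at 18.3% of those that fell. The p65 lists were shorter there, at 11026 and 10253 peaks against 36738 and 38955 in IL-4 PT/LPS, so the shares of the 2 treatments are not on a like footing. In windows of 200 bases under 11353 p65 peaks at distal regions, the NF-kB letters were found in 6.72% at regions that rose and in 1.62% at those that fell, against 3.48% in all, and the ISRE core in 11.2% and 4.2%, against 7.24%.

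**Figure D5:**
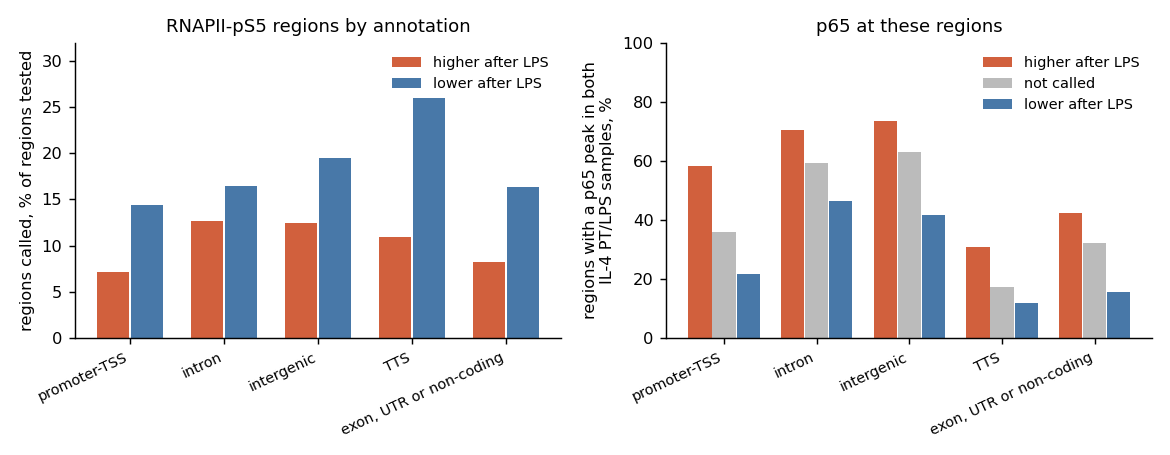
Left, percent of merged RNAPII-pS5 regions of each annotation that rose (orange) or fell (blue) after LPS in IL-4-pretreated BMDMs. Right, percent of the same regions with a p65 peak in both IL-4 PT/LPS samples, for regions that rose, were not called (grey) or fell. Among these 3 classes p65 was found most often at regions that rose and least often at those that fell, in every annotation drawn.

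Single distal regions went from no peak to high scores. The largest rise lay in intergenic sequence at position −15129 bp from the start of Vit, at chr17:78492188-78493759, with no peak before LPS and scores of 49.98 and 57.38 after it (adjusted p = 0.00147). It had no p65 peak in either IL-4 PT/LPS sample. Nor had regions nearest to Gm11110, Rnf144a and Eea1, also among the largest distal rises. An intronic region of Ifit2 had a p65 peak (6.5) in the second sample only. A region upstream of Rest, at chr5:77245349-77246604, went from no peak to 31.9 and 33.9 (adjusted p = 0.00147), and p65 at this region went from 18.5 and 12.6 to 70.4 and 64.3. An intronic region of March5, a mitochondrial ubiquitin ligase gene, at chr19:37207868-37210305, went from no peak to 35.5 and 43.6 (adjusted p = 0.00147), and p65 from 8.06 and 9.67 to 31.6 and 22.4. It lies 1287 bp from the start of March5, and 4930547C10Rik names an intergenic region at chr4:52683122-52683815 that went from no peak to 35.2 and 30.4 (adjusted p = 0.00371), with p65 from no peak to 34.6 and 37.0. The 200 bases under the p65 peaks of these 3 regions are printed because p65 rose with RNAPII-pS5 there (GRCm38.p6, plus strand), with matches to the 4 motifs in capitals: 2 ISRE cores at March5, a STAT6 match at Rest and none at 4930547C10Rik.
March5 intron, chr19:37208200-37208399: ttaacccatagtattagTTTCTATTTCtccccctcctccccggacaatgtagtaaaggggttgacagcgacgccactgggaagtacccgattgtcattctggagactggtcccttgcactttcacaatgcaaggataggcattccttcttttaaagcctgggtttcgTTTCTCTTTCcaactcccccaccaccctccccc
Rest upstream, chr5:77246267-77246466: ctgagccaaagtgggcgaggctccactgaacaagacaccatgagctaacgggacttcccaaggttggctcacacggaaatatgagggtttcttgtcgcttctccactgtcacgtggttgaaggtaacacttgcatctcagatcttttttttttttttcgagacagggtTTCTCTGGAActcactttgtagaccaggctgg
4930547C10Rik, chr4:52683411-52683610: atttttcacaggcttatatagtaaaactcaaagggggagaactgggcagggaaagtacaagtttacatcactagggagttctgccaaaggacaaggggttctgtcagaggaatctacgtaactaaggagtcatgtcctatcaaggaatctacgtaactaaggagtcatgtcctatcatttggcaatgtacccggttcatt

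The largest fall was at an intergenic region 6833 bp from Ang6 on chromosome 14, in the neighbourhood of genes of the secreted ribonuclease family, which scored 119 and 127 in IL-4 PT/ctrl and no peak and 6.68 in IL-4 PT/LPS (−5.31 ± 0.69, adjusted p = 0.00276). A second intergenic region, nearest to Ear1 of the same family, went from 40.8 and 24.8 to no peak (adjusted p = 0.00147). Neither region had a peak in ctrl/ctrl. Several loci changed at many regions at once. Prdm1, with 7 regions gained, and Klf4, with 7 lost, stood high in counts of such regions, so they are no sample of all loci. Gm20125 had 8 gained and Klhl25 had 9 lost. Of 21 tested regions whose nearest gene was Prdm1, a transcriptional repressor, 11 rose and 3 fell. In both IL-4 PT/LPS samples p65 lay at 16 of the 21, among them the 7 that appeared with LPS and 2 of the 3 that fell. Such a p65 peak lay at 52.1% of all tested regions and 60.2% of intergenic ones. Of 18 regions nearest to Klf4, a factor that promotes alternative activation, none rose and 6 fell. The 7 regions that vanished included an intronic one with scores of 6.45 and 4.95 in IL-4 PT/ctrl, and 1 region, at its promoter, appeared, from no peak to 8.38 and 5.65 (adjusted p = 0.0526). The nearest gene need not be the one that a distal region acts on.

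The study also asked whether IL-4 alters the response to LPS. In ctrl BMDMs, without IL-4, LPS raised the score at 886 genes (8.35%) and lowered it at 1849 (17.4%). Of the genes called in IL-4-pretreated BMDMs, 302 of 757 that rose and 709 of 1448 that fell were called in the same direction in ctrl BMDMs. The difference of the 2 responses was higher in IL-4 PT for 138 genes (1.30%) and lower for 208 (1.96%). With any 1 of the 8 samples left out no gene was called higher and at most 1 lower, so these differences rest on all samples together. Tnf rose by 1.22 in ctrl BMDMs and changed by −0.17 in IL-4-pretreated ones (difference −1.39, adjusted p = 0.0395). C3ar1, a complement receptor gene, scored 72.0 and 78.8 in IL-4 PT/ctrl and 33.9 and 36.4 in IL-4 PT/LPS, against 73.2 and 66.3 in ctrl/ctrl and 66.3 and 72.7 in ctrl/LPS (difference −1.42, adjusted p = 0.0395). By bases under peaks the difference at C3ar1 was 0.05. Mgl2 and Fn1, which lost their peaks with LPS in IL-4-pretreated BMDMs, had no peak in either ctrl/LPS sample and at most 1 weak peak in ctrl/ctrl (4.89 for Mgl2), so that a difference of responses cannot be read for them.

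The study grouped LPS-induced mRNAs, measured in other libraries after longer LPS, by whether IL-4 pretreatment attenuated them, left them unchanged or raised them. RNAPII-pS5 in IL-4-pretreated BMDMs rose at 75 of 448 attenuated genes (16.7%), at 165 of 605 unchanged genes (27.3%) and at 32 of 128 raised genes (25%), and fell at 30, 21 and 9. Their median changes were 0.35, 0.81 and 0.65. In ctrl BMDMs the genes that rose were 107, 142 and 29 of the same lists.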

How the data were processed

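The authors deposited 1 peak list per sample. Per the study's methods, with versions from the submitters' processing notes, reads were aligned with BWA 0.7.10 and peaks were called with MACS2 2.0.10 and annotated with HOMER 4.2 (mm10), and peaks in blacklisted regions had been removed. The only measurement is the peak score, a −log10 p or q value as deposited, and no source used here says which. No input control is given in the sources used here.

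Gene scores were log2 transformed, centred per sample on genes with a peak in all 8 samples, and fitted with limma 3.58.1 (R 4.3.3, eBayes with trend) over 4 groups of 2 with Benjamini-Hochberg adjustment over all features. Every adjusted p in the text comes from these limma fits. An exact permutation test of 2 against 2 samples cannot go below p = 0.333. Regions are peaks merged at 1 bp of overlap, scored by their highest peak. Bases under peaks were fitted as log2(bases + 200) without centring. This measure was chosen after seeing the data. The scripts were tested on simulated data. The rule for named genes took the largest called rises and falls, the members of each list with the smallest p, genes the study discusses, and the differences with the smallest p. Others were chosen after their values were seen. A few genes that the rule took are not reported here. The members and lists were chosen with earlier results of these data known. Samples with the same replicate number did not deviate together (r = 0.018 over genes), so they were not treated as pairs.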

Additional observations from a re-analysis of the deposited data

Results flagged for a closer look

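The response to LPS differed between IL-4-pretreated and ctrl BMDMs in 138 genes that were higher and 208 that were lower with IL-4 by a test of the difference itself (limma), and genes among those with the smallest p in each direction are given here, all at adjusted p = 0.0395. None of these differences passed the threshold with the replicate number as a block, and with any 1 of the 8 samples left out at most 1 gene was called. In genes without a peak in a whole group the size of the difference depends on the lowest score used in its place.

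C3ar1 had peaks in all 8 samples, between 66.3 and 78.8 in ctrl/ctrl, IL-4 PT/ctrl and ctrl/LPS and at 33.9 and 36.4 in IL-4 PT/LPS, a difference of −1.42. By bases under peaks its difference was 0.05. Ros1, a receptor tyrosine kinase gene, lost its peaks of 12.0 and 12.7 with LPS in IL-4-pretreated BMDMs and went from 15.2 and 14.6 to 21.04 and 23.72 in ctrl BMDMs, a difference of −4.0. Rsad2 and March5 reached similar scores with LPS in both kinds of BMDM. They started from no peak in IL-4 PT/ctrl and from 14.1 and 11.4 (Rsad2) and 15.95 and 15.77 (March5) in ctrl/ctrl, and their differences of 2.91 and 3.28 lie in the unstimulated samples.

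Gramd1b (difference 4.37) and Mrpl44 (4.81) had peaks in all groups except ctrl/LPS. Poln (4.77), Ech1 (4.51) and Ccdc132 (4.08) had peaks in ctrl/ctrl and IL-4 PT/LPS only. Cep55 (−3.66), 4833439L19Rik (−3.95) and Bbs12 (−4.67) had peaks in all groups except ctrl/ctrl. Usp39 (−5.01), Sim1 (−5.79) and Colgalt2 (−4.80) had peaks in IL-4 PT/ctrl and ctrl/LPS only.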

How the results depend on the processing

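Scores rank peaks by significance and hold no read counts, so a fold of scores is not a fold of signal. With 2 samples in a group the calls depend on each sample.

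Genes that rose in RNAPII-pS5 numbered 256 to 505 with 1 sample left out, and those that fell 708 to 777. Differences between IL-4 PT and ctrl numbered 0 to 0 (higher) and 0 to 1 (lower). Regions that rose numbered 1524 to 2534 and those that fell 2766 to 3690. Promoter parts rose at 66 to 202 and fell at 380 to 452 genes, and body parts at 283 to 541 and 560 to 606. RNAPII-pS2 rose at 448 to 776 and fell at 549 to 606 genes. Bases under peaks rose at 426 to 695 and fell at 734 to 1051.

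At an unadjusted p of 0.05 the counts higher and lower were 1301 and 2266 (genes), 1276 and 1074 (difference), 476 and 1061 (promoter), 1150 and 1712 (body), 1936 and 1952 (RNAPII-pS2) and 1280 and 1804 (bases under peaks). With a peak required in every sample, which leaves fewer features, they were 334 and 348 (genes), 37 and 97 (difference), 591 and 572 (regions), 49 and 70 (promoter), 221 and 218 (body) and 662 and 536 (RNAPII-pS2). With a lowest score 4 times as high 956 genes fell, 1357 differences were lower, 1499 regions rose and 1865 fell, 91 promoter parts rose and 301 fell, and 626 body parts fell. With equal numbers of peaks 965 genes, 2816 regions and 701 body parts fell, the differences numbered 478 and 408, and 2776 regions were lost. In the upper 50% of peaks 1708 regions were gained and 2676 lost. Quantile normalization gave 51 and 116 differences and 376 lower promoter parts, and brought the median change of all genes from −0.20 to −0.03. The 4 IL-4 PT samples alone gave 412 higher promoter parts. Differences that were higher numbered 426 without centring, 212 without a variance trend, 209 by the highest score and 621 by bases under peaks, where 378 were lower. With a peak in at least 1 sample both numbered 0. The cause of these shifts was not tested.

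With the replicate block 653 genes rose and 1242 fell, and the differences numbered 0 and 0. The numbers do not pair the samples, and the block moved no other count by over 1.5 times.

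The direction turned by bases under peaks at Batf (0.36), Btg1 (0.99), Dusp2 (2.02), Il1b (4.59), Mrpl44 (0.20), 1500012F01Rik (−0.61), 4833439L19Rik (−0.031), Ccnt2 (−0.021), Cd3d (−0.27), Fos (−1.67), Hexim1 (−0.45), Poln (−0.66), Tcte2 (−0.66) and the difference of C3ar1 (0.054). By all peaks over the span it turned at Dusp2 (1.08), Il1b (2.21), Mrpl44 (0.42), 1500012F01Rik (−1.36), 4833439L19Rik (−0.23), Poln (−1.05) and Tcte2 (−1.04), and with intergenic peaks at Btg1 (0.47), Il10 (0.21), Il1b (0.86), Ech1 (−1.73), Poln (−0.48) and Tab2 (−0.33). By the highest score it turned at Klf4 (0.10), Mrpl44 (0.21), Pfkfb3 (0.068) and 4833439L19Rik (−0.015), with equal peaks at Klf4 (0.12), Ngp (−0.053) and 4833439L19Rik (−0.049), and after quantile normalization at Mrpl44 (0.049). With 1 sample left out the change ranged from −1.796 to 0.187 at Abca1, from −0.027 to 0.44 at Fos, from −0.63 to 0.082 at Klf4, from −0.38 to 0.082 at Mrpl44 and from −0.34 to 0.35 at 4833439L19Rik. Genes outside the rule for named genes were not followed through every alternative, and of these Irf1 (0.48) and Tnf (0.95) turned by bases under peaks.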
